A study of Homo sapiens with 10 samples.

Results

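The EGF-family ligands and ERBB receptors were followed through 10 mRNA-sequencing libraries of BEAS2B cells, a human bronchial epithelial line. The set was chosen by gene symbol: 6 ligands (AREG, EREG, TGFA, HBEGF, BTC and NRG1), 3 receptors (EGFR, ERBB2 and ERBB3) and the feedback inhibitor ERRFI1, 10 genes of the 52402 symbols counted. Each was a single entry in the count tables. The set was chosen with earlier results of these data known. All cells received Lipofectamine 2000. The 5 groups of 2 libraries were miRcontrol (a scrambled miRNA, genotype WT), miR3124_mimic (miR-3124-5p overexpression), miR200b_mimic (miR-200b-3p overexpression), miR92b_inhibitor (miR-92b knockdown) and the 3-miRNA mixed group (MIX), which received both mimics and the inhibitor. The single agents and the control were used at 50 nM and RNA was taken after 48 h. The amount of each miRNA in MIX is not stated in the sources used here. The sources do not say whether the libraries of a group came from separate transfections, so the p-values measure the spread between these libraries, which may be technical. One immortalised line is the only cell model.

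ERBB receptors are tyrosine kinases at the cell surface that pair up when a ligand binds and then signal through the RAS-ERK and PI3K-AKT routes. AREG, EREG, TGFA, HBEGF and BTC are made as membrane precursors and are released by metalloproteases such as ADAM17. NRG1 binds ERBB3, a receptor with little kinase activity of its own. ERBB2 binds no known ligand and acts as a partner of the others. In airway epithelium, EGFR and its ligands are known for wound repair and for proliferation. ERRFI1, also called MIG6, is induced by growth-factor signalling and binds and inhibits the EGFR kinase.

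The transfected and inhibited miRNAs are shown because a miRNA binds messages mainly through its seed, bases 2 to 8, given here in capitals. The mature sequences are those of RefSeq, and all 4 lie on chromosome 1 of GRCh38.p14. The labels do not give the arm of miR-92b that the inhibitor blocks, so both arms are shown.

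hsa-miR-3124-5p: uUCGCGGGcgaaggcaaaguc

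hsa-miR-200b-3p: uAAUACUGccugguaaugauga

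hsa-miR-92b-5p: aGGGACGGgacgcggugcagug

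hsa-miR-92b-3p: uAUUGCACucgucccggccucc

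None of the 4 seeds was the same. The reverse complement of each seed was searched in each gene's 3′UTR, taken from its longest coding transcript (GENCODE v29, GRCh38), on the message strand. The miR-200b-3p word, CAGTATT, was in 4 of the 10 genes: 3 matches in ERRFI1, 2 in NRG1, and 1 each in EREG and EGFR. It was present in 19.5% of the 12232 tested genes that have an annotated 3′UTR. The miR-92b-3p word, GTGCAAT, was in EREG and NRG1, 2 of the 10 genes, against a share of 13.1%. The miR-3124-5p word, CCCGCGA (0.621%), and the miR-92b-5p word, CCGTCCC (4.18%), were in none of the 10. The 3′UTRs ranged from 269 to 6011 bases, and longer ones hold more words by length alone. The matches in ERRFI1, EREG and EGFR are printed with 10 bases on each side and the word in capitals. They are described here because they can be read against the levels of the same genes. A match is a description of letters, and binding was not measured. Levels at 48 h cannot separate an effect on the matched message from an indirect one.

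ERRFI1, first match, chr1:8012765-8012791, minus strand: gaagaagataCAGTATTgtttagatca

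ERRFI1, second match, chr1:8012190-8012216, minus strand: ggttcctattCAGTATTtcctggggat

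ERRFI1, last match, chr1:8011799-8011825, minus strand: attatgtgtaCAGTATTggacaaagga

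EREG, miR-200b-3p word, chr4:74388321-74388347, plus strand: cttgtacaaaCAGTATTtctggtgtat

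EREG, miR-92b-3p word, chr4:74386362-74386388, plus strand: atataccctgGTGCAATcacacgactg

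EGFR, miR-200b-3p word, chr7:55211456-55211482, plus strand: atgatgaaagCAGTATTtgtacaaatg

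The libraries held 13587666 to 18503890 counts. Levels are given as normalized CPM (counts scaled to library size, after edgeR's RLE factors). Differences are log2 fold changes from edgeR's quasi-likelihood test, with p-values adjusted by the Benjamini-Hochberg method over the 14884 genes that passed the filter on low counts. A gene was called at an adjusted p under 0.05, and a fold of at least 2 was counted separately. Of the 10 genes, 9 passed the filter and BTC did not. The epithelial label was checked against 7 airway markers. KRT8 and KRT18, keratins of simple epithelium, were high (814 and 814 CPM for KRT8 in the miRcontrol libraries). CDH1, the epithelial cadherin, had 3 and 2 counts there and TP63, a basal-cell factor, had 0 in both, while the mesenchymal filament gene VIM was at 3894 and 3707 CPM. Summed over the 7 markers, the epithelial level was lowest in miR92b_inhibitor (1457 and 1400 CPM) and miRcontrol (1442 and 1460), intermediate in miR3124_mimic (1944 and 1956) and highest in miR200b_mimic (2669 and 2710) and MIX (2644 and 2637). The summed mesenchymal level (5 markers) was 7410 and 7388 CPM in miRcontrol and lay between 4464 and 5019 in miR3124_mimic, miR200b_mimic and MIX. The sums rest on a few abundant genes and do not describe every marker. KRT8 and KRT18 make up nearly all of the epithelial sum, while KRT19, a further keratin, went from 8.20 CPM in miRcontrol to 0.760 in miR3124_mimic (log2 -3.40, adjusted p = 8.31e-17) and 2.62 in MIX (log2 -1.65, adjusted p = 1.15e-10) and rose in miR200b_mimic (log2 0.82, adjusted p = 2.95e-06). VIM and the matrix gene FN1 make up most of the mesenchymal sum. FN1 was not called in miR3124_mimic (log2 0.052, adjusted p = 0.216), and the collagen gene COL1A1 rose in miR3124_mimic (log2 0.99), miR200b_mimic (1.62) and MIX (0.87), each with an adjusted p of at most 5.44e-10. CDH1 rose in miR200b_mimic (log2 6.02) and MIX (3.87), from the few counts given above. ZEB1, a further mesenchymal marker, fell in miR200b_mimic (log2 -1.29) and MIX (-1.12). Each of these 4 changes had an adjusted p of at most 3.59e-09, and neither gene was called in miR3124_mimic (adjusted p = 0.257 and 0.0676). The sums moved with several results below, and their part in them was not tested. In bulk RNA, more cells with a transcript and more transcript per cell cannot be told apart.

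In the control cells, the inhibitor and 2 members of the family dominated once length was taken into account. In normalized CPM per kilobase of exon, ERRFI1 was at 30.6 ± 0.166, HBEGF at 26.7 ± 1.60 and EGFR at 23.0 ± 1.12 (SD, n = 2). ERBB2 (7.20 ± 0.201), TGFA (5.15 ± 0.0191) and AREG (3.28 ± 0.0720) were intermediate. NRG1 was at 0.995 ± 0.0362, ERBB3 at 0.619 ± 0.0777 and EREG at 0.456 ± 0.0641. HBEGF was therefore the ligand with the highest level per length in miRcontrol. It remained so in miR200b_mimic (33.3 ± 0.904) and MIX (37.9 ± 1.09), while AREG reached 17.1 ± 1.02 and 14.9 ± 1.26 and passed TGFA (12.3 ± 0.138 and 11.5 ± 0.501). Dividing by the longest transcript instead of all exons gave the same order of the 9 genes in miRcontrol but moved the levels, by more than 1.5 times for ERBB2 (to 15.5), NRG1 (to 1.90) and ERBB3 (to 0.945).

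**Figure D1:**
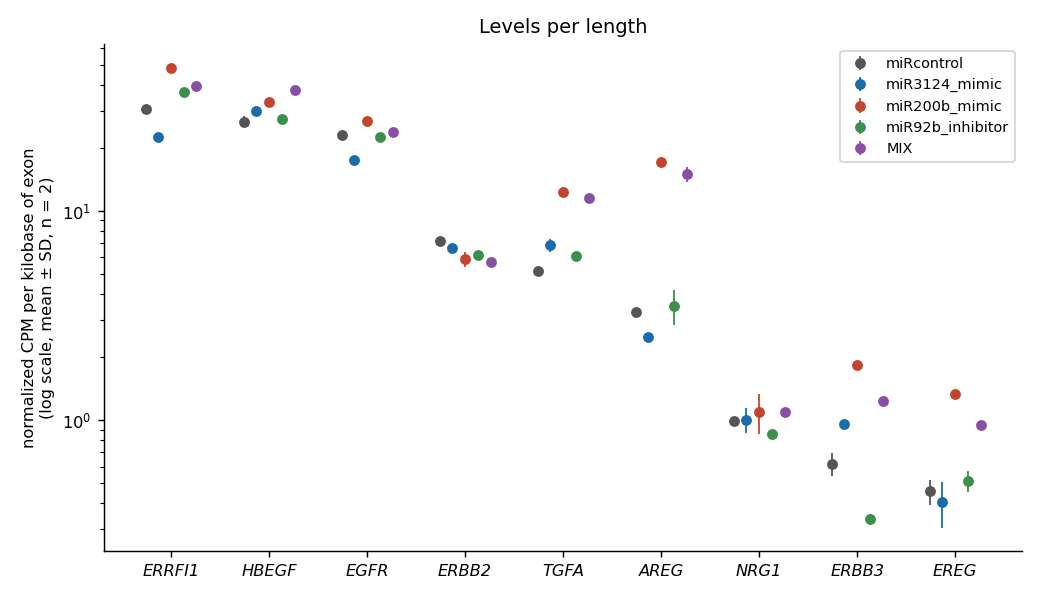
Normalized CPM per kilobase of exon (log axis) for 9 genes in the 5 groups. Points are means and bars the SD over 2 libraries. AREG moved from 3.28 in miRcontrol to 17.1 in miR200b_mimic and passed TGFA, while HBEGF remained the highest ligand.

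Ranges between the highest and the lowest group mean were compared among the tested ligands of the set. The widest were those of AREG (amphiregulin, a low-affinity EGFR ligand, 6.85-fold) and EREG (epiregulin, which binds EGFR and ERBB4, 3.28-fold). Both genes are on the plus strand of chromosome 4 in GRCh38 (EREG at chr4:74365143-74388751, AREG at chr4:74445134-74455009). They are neighbours, 56382 bases apart with no coding gene between them. AREG had 5.32 and 5.49 CPM in the miRcontrol libraries, whereas those of miR3124_mimic had 4.23 and 4.02, those of miR200b_mimic 27.1 and 29.5, those of miR92b_inhibitor 6.59 and 5.04 and those of MIX 23.2 and 26.1. The miR200b_mimic and MIX libraries lay far above all the others, and only miR92b_inhibitor and miRcontrol overlapped. AREG rose 5.24-fold in miR200b_mimic (log2 2.39, SE 0.123, adjusted p = 1.96e-21) and 4.55-fold in MIX (log2 2.19, SE 0.123, adjusted p = 5.01e-20). For miR3124_mimic, the log2 value was -0.39 (SE 0.175, adjusted p = 0.0572), with both libraries below both controls. In miR92b_inhibitor it was 0.10 (95% interval -0.22 to 0.42).

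EREG had 2.35 and 2.86 CPM in the miRcontrol libraries, whereas those of miR3124_mimic had 1.91 and 2.72, those of miR200b_mimic 7.85 and 7.31, those of miR92b_inhibitor 2.68 and 3.18 and those of MIX 5.36 and 5.43. The order of the groups was the one seen for AREG, although miR92b_inhibitor, miRcontrol and miR3124_mimic were not separated. EREG rose 2.90-fold in miR200b_mimic (log2 1.54, SE 0.203, adjusted p = 1.81e-08) and 2.07-fold in MIX (log2 1.05, SE 0.209, adjusted p = 4.50e-05). The 3′UTR of EREG holds 1 miR-200b-3p word, printed above, and the part of that word in the level was not tested. Counts of EREG were low, between 28 and 127 per library, and the 95% interval in MIX ran from 0.63 to 1.47.

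Because AREG and EREG moved together, their promoters are shown side by side, from 250 bases before to 50 bases after the RefSeq start (GRCh38.p14). Capitals mark TATAAA and, on either strand, TGACG, a part of the full cAMP-response element TGACGTCA. Motif letters were searched on both strands in the 35116 promoters of the table.

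AREG, chr4:74444886-74445185, plus strand: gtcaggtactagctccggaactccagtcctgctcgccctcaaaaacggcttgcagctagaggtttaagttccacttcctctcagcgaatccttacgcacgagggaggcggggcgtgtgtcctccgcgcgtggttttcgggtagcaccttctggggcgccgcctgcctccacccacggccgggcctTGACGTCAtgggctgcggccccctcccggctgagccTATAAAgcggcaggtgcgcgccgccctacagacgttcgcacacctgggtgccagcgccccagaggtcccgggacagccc

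EREG, chr4:74364895-74365194, plus strand: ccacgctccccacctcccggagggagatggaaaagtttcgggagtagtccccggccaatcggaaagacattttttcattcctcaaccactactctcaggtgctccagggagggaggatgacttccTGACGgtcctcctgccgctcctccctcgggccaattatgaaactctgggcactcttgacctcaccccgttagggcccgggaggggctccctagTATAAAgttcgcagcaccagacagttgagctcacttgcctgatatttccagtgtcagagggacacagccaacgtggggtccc

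TATAAA began 29 bases before the start in AREG and 32 bases before it in EREG. It occurs in 11.5% of all promoters of this length. Among the 8 of the 10 genes with a promoter in the table, it was also in 1 of the EGFR entries. In AREG, TGACG began 65 bases before the start and overlapped a copy on the other strand, so that together they spell TGACGTCA. In EREG it began 125 bases before the start, without a copy on the other strand. TGACG was also in a TGFA entry and in 24.6% of all promoters. TGACTCA, the AP-1 motif (4.95% of all promoters), was in neither AREG nor EREG, but was in an EGFR entry. GGGCGG, the GC box (45% of all promoters), was also searched and is not marked above. It was in AREG, on the other strand and beginning 9 bases before the start, and was not in EREG. It was in 6 of the 8 genes. Factor binding was not measured.

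TGFA (transforming growth factor alpha, a high-affinity EGFR ligand) was raised in every transfected group. TGFA had 25.5 and 25.6 CPM in the miRcontrol libraries, whereas those of miR3124_mimic had 35.8 and 32.3, those of miR200b_mimic 60.4 and 61.4, those of miR92b_inhibitor 30.2 and 30.2 and those of MIX 55.3 and 58.8. No neighbouring groups overlapped. TGFA rose 2.39-fold in miR200b_mimic (log2 1.25, SE 0.0697, adjusted p = 3.75e-20) and 2.23-fold in MIX (log2 1.16, SE 0.0689, adjusted p = 3.73e-19). The rise in miR3124_mimic was smaller (log2 0.41, SE 0.0758, adjusted p = 1.01e-05). In miR92b_inhibitor the log2 fold change was 0.24 (adjusted p = 0.0107), and that call was lost without either miRcontrol library or without miR92b_inhibitor replicate 2 (adjusted p = 0.0527 to 0.0608).

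HBEGF (heparin-binding EGF-like growth factor) changed less. HBEGF had 84.1 and 77.2 CPM in the miRcontrol libraries, whereas those of miR3124_mimic had 88.3 and 92.8, those of miR200b_mimic 102 and 98.4, those of miR92b_inhibitor 84.1 and 81.5 and those of MIX 117 and 112. Here MIX and not miR200b_mimic was the highest group, and miR92b_inhibitor and miRcontrol overlapped. HBEGF rose 1.42-fold in MIX (log2 0.50, adjusted p = 7.79e-12) and by 0.31 on the log2 scale in miR200b_mimic (adjusted p = 2.06e-06). The rise of 0.17 with the miR-3124-5p mimic (adjusted p = 0.00575) was not called without miRcontrol replicate 2 (0.11, adjusted p = 0.180) or without miR3124_mimic replicate 2 (0.13, adjusted p = 0.117).

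NRG1 (neuregulin 1, a ligand of ERBB3) was not called in any group against miRcontrol. Its levels ran from 9.57 CPM in a miR92b_inhibitor library to 14.3 in a miR200b_mimic library, whose partner was at 10.5. The log2 fold changes lay between -0.22 and 0.16, and their 95% intervals together covered -0.48 to 0.42, so that a change within those limits cannot be told from none. Without miR200b_mimic replicate 1, NRG1 passed the threshold in miR200b_mimic (0.35, adjusted p = 0.0486), so this result rested on 1 library. BTC (betacellulin), the next coding gene after AREG on chromosome 4, was barely counted. The miRcontrol libraries held 1 and 1 counts, those of miR3124_mimic 0 and 1, those of miR200b_mimic 0 and 2, those of miR92b_inhibitor 2 and 1 and those of MIX 0 and 0. All were at or under the 3 counts that a library with no detected read still allows, and no fold was computed.

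**Figure D2:**
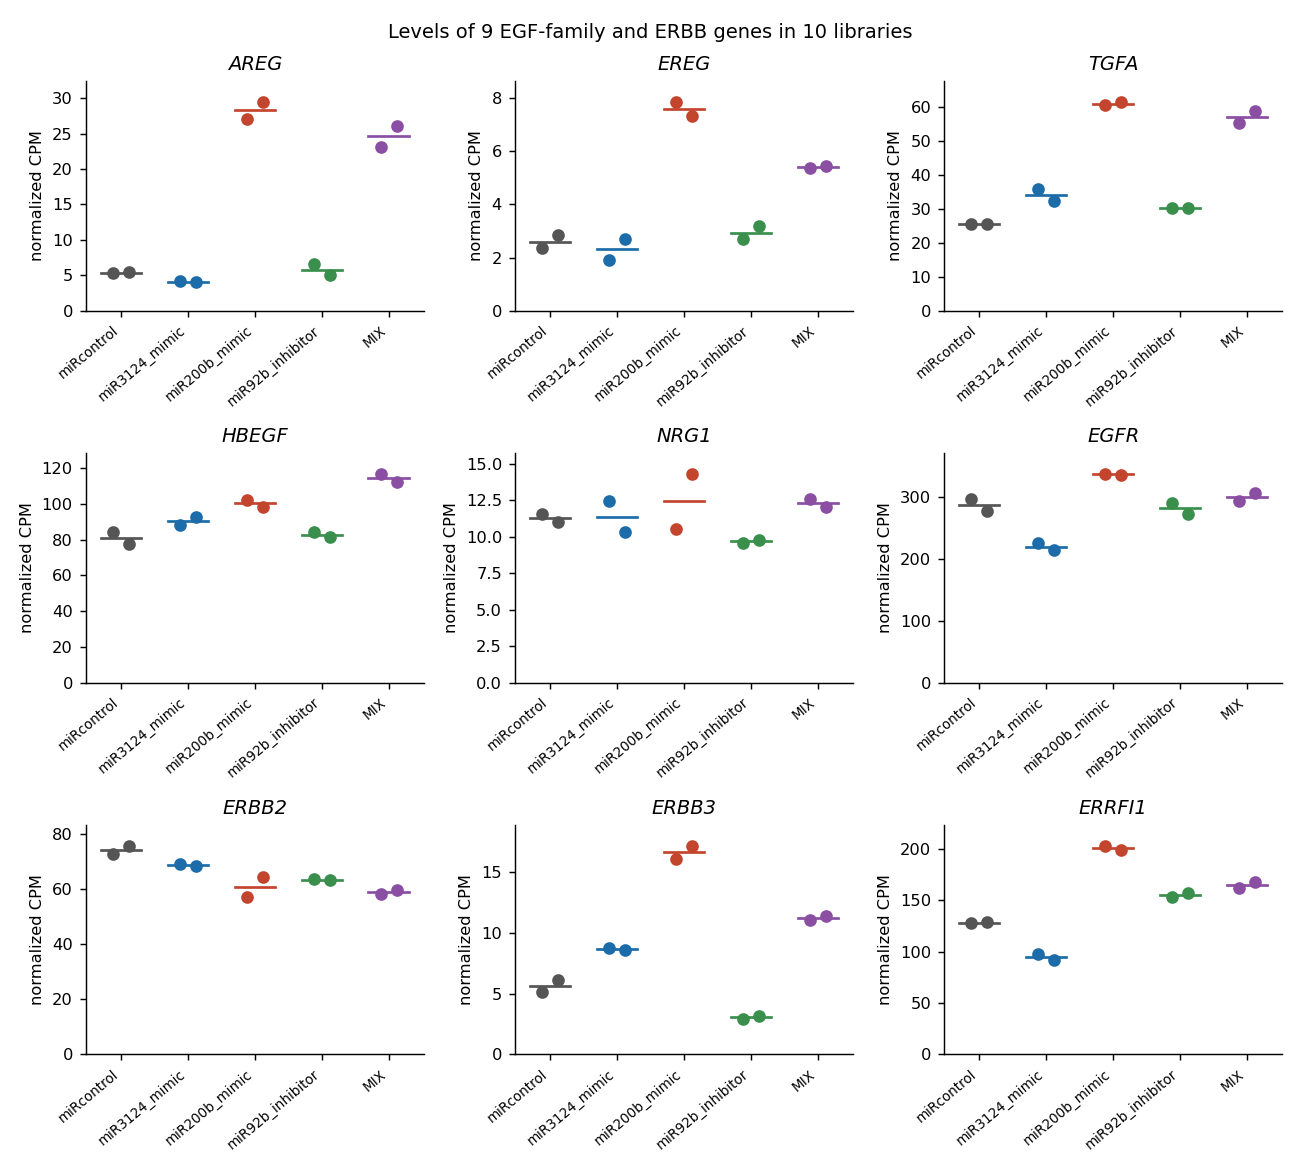
Normalized CPM of 9 genes in each of 10 libraries. Points are libraries and horizontal lines group means, and each axis starts at 0. AREG, EREG, TGFA, ERBB3 and ERRFI1 had their highest levels in miR200b_mimic with MIX next, while ERBB2 was highest in miRcontrol.

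Among the receptors, ERBB3 (the NRG1 receptor) varied most, 5.45-fold between the highest and lowest group mean. ERBB3 had 5.09 and 6.09 CPM in the miRcontrol libraries, whereas those of miR3124_mimic had 8.74 and 8.60, those of miR200b_mimic 16.1 and 17.1, those of miR92b_inhibitor 2.92 and 3.18 and those of MIX 11.0 and 11.4. No neighbouring groups overlapped, and miR92b_inhibitor was the only group below miRcontrol. ERBB3 rose 2.98-fold in miR200b_mimic (log2 1.58, SE 0.135, adjusted p = 9.09e-14), 2.001-fold in MIX (log2 1.001, SE 0.140, adjusted p = 5.75e-08) and by 0.63 on the log2 scale in miR3124_mimic (adjusted p = 0.000333). It fell in miR92b_inhibitor (log2 -0.87, SE 0.179, adjusted p = 0.000114). ERBB3 and the summed epithelial markers were both highest in miR200b_mimic, but they did not move together in every group. MIX had nearly the same sum as miR200b_mimic, while its ERBB3 level was lower (log2 -0.57). The sums of miR92b_inhibitor and miRcontrol were also close, while ERBB3 fell in miR92b_inhibitor. EPCAM, an epithelial adhesion gene, went from 8 and 2 counts in miRcontrol to 137 and 175 in miR200b_mimic. KRT19 fell in miR3124_mimic and MIX, where ERBB3 rose. The part of these markers in the ERBB3 result was not tested.

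EGFR (the receptor of AREG, EREG, TGFA and HBEGF) was the member with the most counts and changed modestly. EGFR had 298 and 278 CPM in the miRcontrol libraries, whereas those of miR3124_mimic had 226 and 214, those of miR200b_mimic 338 and 336, those of miR92b_inhibitor 291 and 273 and those of MIX 293 and 307. Both miR3124_mimic libraries were below, and both miR200b_mimic libraries above, all the other libraries. EGFR fell in miR3124_mimic (log2 -0.39, SE 0.0414, adjusted p = 4.13e-11) and rose in miR200b_mimic (log2 0.23, SE 0.0403, adjusted p = 7.07e-06). Its 3′UTR holds a miR-200b-3p word, printed above, and no miR-3124-5p word, and the part of the word was not tested. In miR92b_inhibitor the log2 fold change was -0.031 (95% interval -0.11 to 0.051) and in MIX it was 0.060 (95% interval -0.021 to 0.14). EGFR-AS1, on the opposite strand, had 10 to 46 counts a library against 3303 to 5844 for EGFR.

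ERBB2 was the only member lower than miRcontrol in every transfected group. ERBB2 had 72.8 and 75.7 CPM in the miRcontrol libraries, whereas those of miR3124_mimic had 69.2 and 68.3, those of miR200b_mimic 57.2 and 64.4, those of miR92b_inhibitor 63.5 and 63.2 and those of MIX 58.2 and 59.5. Each of the 8 libraries with a mimic or the inhibitor was below both controls. ERBB2 fell in MIX (log2 -0.33, adjusted p = 2.61e-06), miR200b_mimic (log2 -0.28, adjusted p = 7.02e-05) and miR92b_inhibitor (log2 -0.23, adjusted p = 0.000993), while the difference of -0.11 with the miR-3124-5p mimic was not called (adjusted p = 0.0920). The ERBB2 values carry a limit, since MIEN1 (138 to 465 counts) and PGAP3 (51 to 77 counts) overlap ERBB2 on the opposite strand and the strand setting of the counting is not given in the sources used here. MIEN1 had 22.6 and 24.8 CPM in miRcontrol. Like ERBB2, it was lower in miR200b_mimic (17.4 and 17.8) and MIX (13.9 and 16.5). It was lowest in miR3124_mimic (9.42 and 12.7), where ERBB2 was not called. In miR92b_inhibitor, where ERBB2 fell, MIEN1 was at 24.1 and 25.5. The part of opposite-strand reads in the ERBB2 values was not tested.

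ERRFI1 had 128 and 129 CPM in the miRcontrol libraries, whereas those of miR3124_mimic had 97.7 and 92.1, those of miR200b_mimic 203 and 199, those of miR92b_inhibitor 153 and 157 and those of MIX 162 and 168. No neighbouring groups overlapped. ERRFI1 rose 1.57-fold in miR200b_mimic (log2 0.65, SE 0.0428, adjusted p = 1.93e-17), by 0.36 in MIX (adjusted p = 1.14e-09) and by 0.27 in miR92b_inhibitor (adjusted p = 1.85e-06) on the log2 scale. It fell in miR3124_mimic (log2 -0.44, SE 0.0463, adjusted p = 3.42e-11). ERRFI1 holds 3 miR-200b-3p words in a 3′UTR of 1491 bases, the most among the 10 genes. Its level was the highest of the 5 groups in miR200b_mimic, and the part of the words in it was not tested. In miR3124_mimic, ERRFI1 and EGFR were the 2 members that fell.

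Taking the 9 tested genes together, the miR-200b-3p mimic moved most of them. These genes were chosen with earlier results of these data known, so the shares and medians below describe them and test nothing. In miR200b_mimic, 7 of 9 rose and 1 (ERBB2) fell, where 21.4% of all tested genes rose and 19.1% fell (40.6% in all). AREG, EREG, TGFA and ERBB3 rose at least 2-fold, 4 of 9, against 2.72% of all genes. The median log2 fold change was 0.65 for the 9 genes and -0.0055 for all genes. In MIX, 6 of 9 rose and 1 fell (21.5% and 21.1% of all genes, 42.7% in all), with a median of 0.50 against 0.0030. The same 4 genes rose at least 2-fold (3.14% of all genes), although ERBB3 stood at the threshold, and without miRcontrol replicate 1 only AREG and TGFA passed it (EREG at 0.91, ERBB3 at 0.88). In miR3124_mimic, 3 rose (TGFA, HBEGF and ERBB3) and 2 fell (EGFR and ERRFI1), beside 25.7% and 25.3% of all genes. The total of 5 of 9 was close to the 51.0% of all genes called, and the median was -0.11 against 0.0039. In miR92b_inhibitor, 2 rose (TGFA and ERRFI1) and 2 fell (ERBB2 and ERBB3), beside 17.5% and 18.2% of all genes. The total was 4 of 9 against 35.7%, and the median was 0.037 against -0.0061. In these 2 groups 0 of 9 genes changed at least 2-fold by edgeR's quasi-likelihood test, by edgeR's exact test or by DESeq2 (8.13% and 1.91% of all genes by the first), and since all their fitted folds were under 2, an unadjusted p gives 0 as well. The 4 comparisons share the miRcontrol libraries and are not independent of each other.

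**Figure D3:**
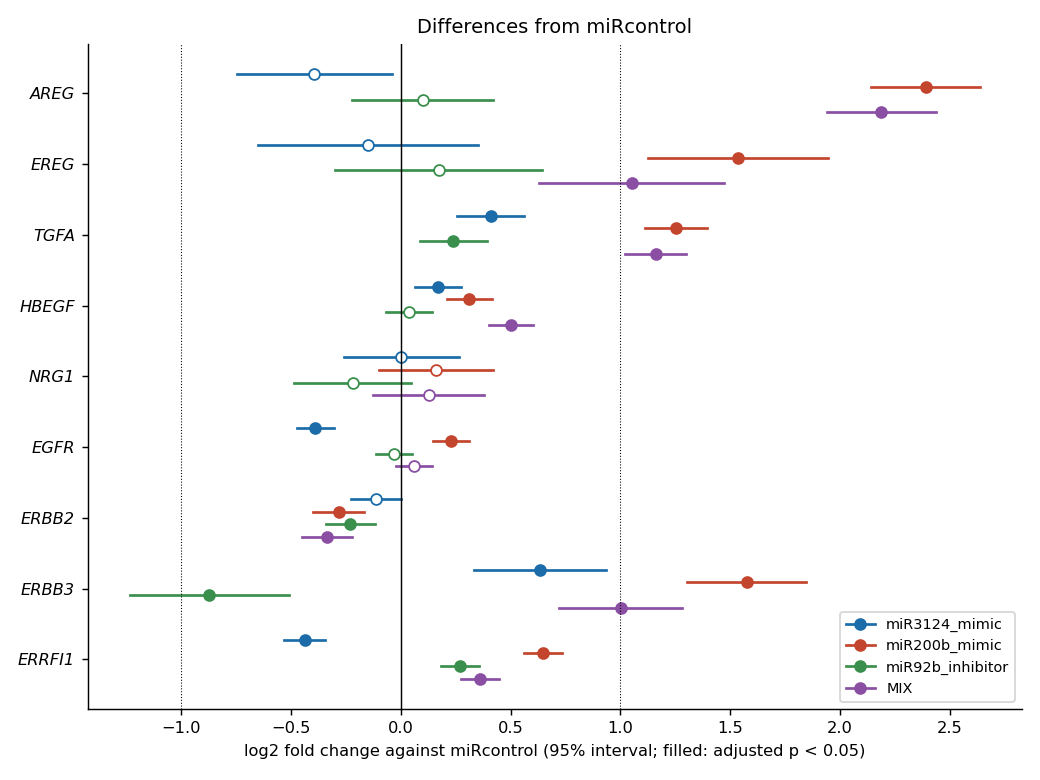
Log2 fold change of 9 genes in the 4 transfected groups against miRcontrol, with 95% intervals. Filled points have an adjusted p under 0.05 and dotted lines mark a 2-fold change. AREG in miR200b_mimic (2.39) and MIX (2.19) lies furthest to the right, and ERBB3 in miR92b_inhibitor (-0.87) furthest to the left.

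The mixed group was then compared with each single transfection. By the size of the log2 difference, MIX lay nearest to miR200b_mimic for 6 of the 9 genes (AREG, EREG, TGFA, HBEGF, NRG1 and ERBB2). It lay nearest to miR92b_inhibitor for EGFR (0.091) and ERRFI1 (0.092), and nearest to miR3124_mimic for ERBB3 (0.37). This order covers the single transfections only, and EGFR in MIX was nearer still to miRcontrol (0.060, not called). Against miR200b_mimic, HBEGF was higher and EREG, EGFR, ERBB3 and ERRFI1 were lower, 5 of 9 genes called where 38.6% of all genes were (18.2% higher and 20.4% lower). The differences in MIX relative to miR200b_mimic were -0.57 for ERBB3 (SE 0.118, adjusted p = 9.55e-05), -0.29 for ERRFI1 (adjusted p = 2.10e-07), -0.17 for EGFR (adjusted p = 0.000657) and 0.19 for HBEGF (adjusted p = 0.00149) on the log2 scale. EREG was -0.48 (adjusted p = 0.0262) but was not called by DESeq2 (adjusted p = 0.144) or when any 1 of the 4 libraries was left out. AREG differed by -0.20 (95% interval -0.39 to -0.012, adjusted p = 0.0881) and TGFA by -0.095 (95% interval -0.22 to 0.029, adjusted p = 0.234). None of the 9 genes differed 2-fold from miR200b_mimic by any of the 3 tools, where 3.44% of all genes did.

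Against miR3124_mimic, 7 of 9 genes were higher in MIX and ERBB2 was lower, 8 called where 49.1% of all genes were (25.3% higher and 23.8% lower). AREG (log2 2.58, adjusted p = 1.52e-21) and EREG (log2 1.20, adjusted p = 7.09e-06) were more than 2-fold higher, against 2.35% of all genes. Without miR3124_mimic replicate 1, EREG stood at 0.99 and AREG alone passed. EGFR and ERRFI1, which had fallen in miR3124_mimic, were higher in MIX by 0.45 (adjusted p = 6.77e-13) and 0.80 (adjusted p = 4.78e-20). ERBB3 was higher by 0.37 (adjusted p = 0.0168), a call that DESeq2 did not make (adjusted p = 0.101) and that was lost without miR3124_mimic replicate 2 or MIX replicate 2 (adjusted p = 0.0825 and 0.0765).

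Against miR92b_inhibitor, 6 of 9 genes were higher in MIX and 0 lower by edgeR's quasi-likelihood test (19.7% and 19.9% of all genes). AREG (log2 2.09, adjusted p = 1.58e-19) and ERBB3 (log2 1.87, adjusted p = 5.55e-14) were more than 2-fold higher, against 3.04% of all genes. ERBB3 had fallen with the inhibitor alone, and in MIX it lay above miRcontrol. TGFA was higher by 0.92 (adjusted p = 5.05e-16), EREG by 0.88 (adjusted p = 0.000423) and HBEGF by 0.47 (adjusted p = 6.80e-11). NRG1 was higher by 0.35 (adjusted p = 0.0267), which was its only call, and DESeq2 (adjusted p = 0.129) and each fit without 1 of the 4 libraries did not make it. ERBB2, the lowest of the uncalled values, was at -0.11 (adjusted p = 0.139).

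**Figure D4:**
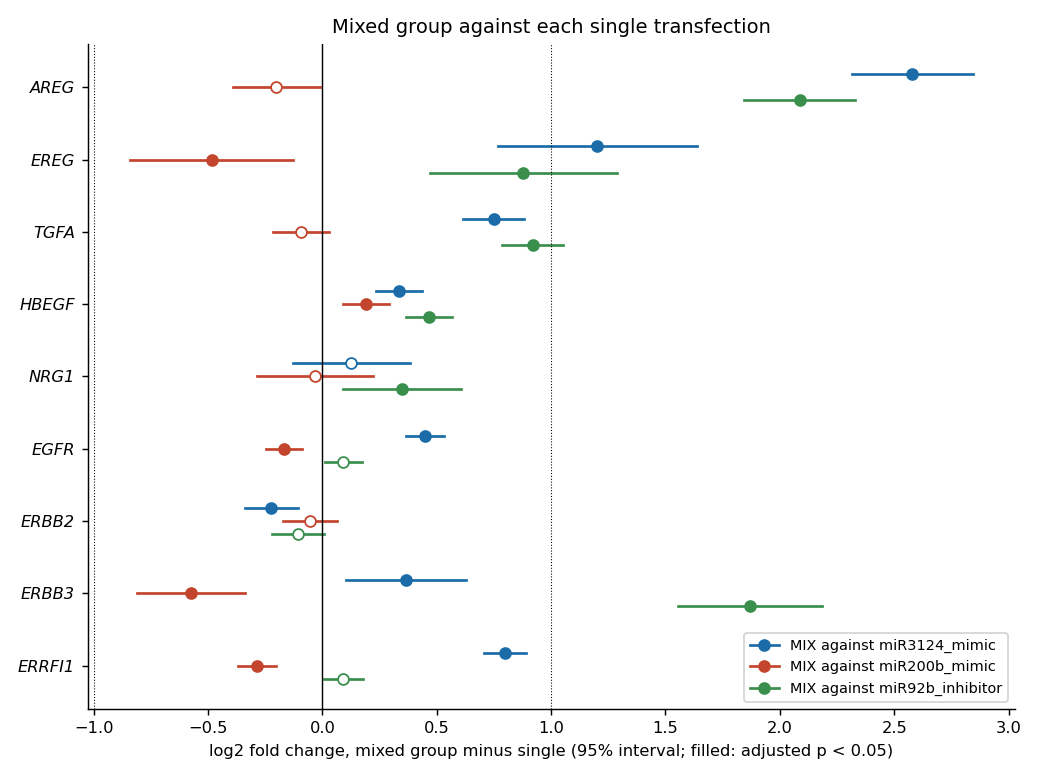
Log2 fold change of 9 genes in MIX against each single transfection, with 95% intervals. Filled points have an adjusted p under 0.05 and dotted lines mark a 2-fold change. All values against miR200b_mimic lie between -0.57 and 0.19, while AREG lies above 2 against the other 2 groups.

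The wider pathway was described with 6 lists of 64 genes, of which 57 were tested. These lists were also chosen with earlier results of these data known. Against miRcontrol, the miR-3124-5p mimic gave 39 calls (25 higher, 14 lower), the miR-200b-3p mimic 38 (21 and 17), the inhibitor 33 (21 and 12) and the mixture 33 (21 and 12), to be read beside the 51.0%, 40.6%, 35.7% and 42.7% of all genes called. Most of the changes were under 2-fold. Of the other ligands and ERBB4, 3 of 6 were tested. NRG2, a further neuregulin, rose in miR3124_mimic (1.95 and 2.45 CPM in miRcontrol, 7.72 and 7.58 in miR3124_mimic, log2 1.80, adjusted p = 4.87e-10) and fell in miR200b_mimic (0.598 and 0.920 CPM, log2 -1.48, adjusted p = 0.000226). EPGN (epigen), the coding gene next to EREG on its other side, 49835 bases away, rose in miR3124_mimic (0.959 to 2.22 CPM, log2 1.20, SE 0.360, adjusted p = 0.00431), where AREG and EREG were not called. It was not called in the other 3 groups. EPGN was chosen for mention after its values were seen. EGF, NRG3 and ERBB4, the remaining EREG receptor, did not pass the filter. Of the 5 genes for ligand shedding (ADAM10, ADAM17, RHBDF1, RHBDF2 and RHBDL2), 4 rose in miR3124_mimic, 1 rose and 1 fell in miR200b_mimic, 1 rose and 3 fell in miR92b_inhibitor, and 2 rose in MIX. Over all genes, 51.0%, 40.6%, 35.7% and 42.7% were called in these comparisons, and with 5 genes the counts are small.

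Downstream of the receptors, PIK3R2 and AKT2 fell more than 2-fold in miR3124_mimic. PIK3R2, a regulatory subunit of PI3K, was at 80.0 and 83.3 CPM in miRcontrol, 15.4 and 14.3 in miR3124_mimic and 29.3 and 26.0 in MIX. It fell by 2.46 on the log2 scale in miR3124_mimic (adjusted p = 4.84e-31) and by 1.56 in MIX (adjusted p = 1.67e-25). It fell less in miR92b_inhibitor (log2 -0.53, adjusted p = 1.58e-10) and rose in miR200b_mimic (log2 0.40, adjusted p = 1.77e-08). AKT2, a kinase activated through PI3K, went from 120 and 116 CPM to 45.9 and 45.8 in miR3124_mimic (log2 -1.36, adjusted p = 1.66e-26). It also fell in MIX (log2 -0.76, adjusted p = 3.94e-18), miR200b_mimic (log2 -0.22, adjusted p = 0.000117) and miR92b_inhibitor (log2 -0.17, adjusted p = 0.00317), the last of which was not called without miRcontrol replicate 1 (adjusted p = 0.0543). Over all 12 adaptors, 5 rose and 5 fell with the miR-3124-5p mimic, 4 and 6 with the miR-200b-3p mimic, 0 and 4 with the inhibitor, and 1 and 6 with the mixture. Of the 12 RAS-ERK and AKT kinases tested, 2 rose and 3 fell, 4 and 5, 2 and 4, and 3 and 5 in the same order of groups. Called in either direction, these were 10, 10, 4 and 7 of 12 adaptors and 5, 9, 6 and 8 of 12 kinases, beside 51.0%, 40.6%, 35.7% and 42.7% of all genes.

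Of the 16 negative regulators, 10 rose and 0 fell in miR3124_mimic, beside 25.7% and 25.3% of all genes. In miR200b_mimic 6 rose and 3 fell (21.4% and 19.1%), in miR92b_inhibitor 8 rose and 1 fell (17.5% and 18.2%), and in MIX 8 rose and 0 fell (21.5% and 21.1%). Their median log2 fold changes were 0.20, -0.033, 0.23 and 0.18 in that order, beside medians of all genes between -0.0061 and 0.0039. DUSP6, an ERK phosphatase, was at 16.7 and 16.4 CPM in miRcontrol, 38.8 and 33.7 in miR3124_mimic and 48.2 and 49.6 in MIX (log2 1.13, adjusted p = 1.58e-15, and log2 1.57, adjusted p = 2.98e-21). It also rose in miR200b_mimic (log2 1.22, adjusted p = 1.93e-16) and miR92b_inhibitor (log2 0.93, adjusted p = 5.23e-12). DUSP5, another ERK phosphatase, was at 30.7 and 26.1 CPM in miRcontrol and 79.4 and 82.7 in miR200b_mimic (log2 1.51, adjusted p = 3.24e-24). It also rose in MIX (log2 1.43), miR3124_mimic (0.99) and miR92b_inhibitor (0.61), each with an adjusted p of at most 1.46e-09. ERRFI1 fell in miR3124_mimic, where none of the 16 did.

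Of the 9 tested growth-factor response genes, 2 rose and 6 fell in miR3124_mimic (median -0.28), where 25.7% of all genes rose and 25.3% fell. In miR200b_mimic 6 rose and 1 fell (median 0.24), beside 21.4% and 19.1% of all genes. In miR92b_inhibitor 9 rose and 0 fell (median 0.71), beside 17.5% and 18.2%. In MIX 7 rose and 1 fell (median 0.36), beside 21.5% and 21.1%. The differences between these groups of counts were not tested. EGR1, an immediate-early transcription factor, was at 9.44 and 7.94 CPM in miRcontrol and 35.0 and 47.1 in miR92b_inhibitor (log2 2.24, adjusted p = 1.12e-20). EGR1 also rose in MIX (46.9 ± 1.57 CPM, SD, n = 2, log2 2.43, adjusted p = 3.96e-23) and in miR200b_mimic (log2 1.23, adjusted p = 6.75e-11), and was not called in miR3124_mimic (log2 -0.23, adjusted p = 0.242). FOS, an AP-1 subunit, had 12 and 12 counts in miRcontrol and 80 and 82 in MIX (log2 2.64, adjusted p = 1.16e-09). FOS rose at least 2-fold in the other 3 groups as well, by 1.67 with the miR-3124-5p mimic, 1.34 with the miR-200b-3p mimic and 1.83 with the inhibitor on the log2 scale, with adjusted p-values of at most 0.00312. AREG and EREG were not called in miR92b_inhibitor, where all 9 of these genes rose.

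**Figure D5:**
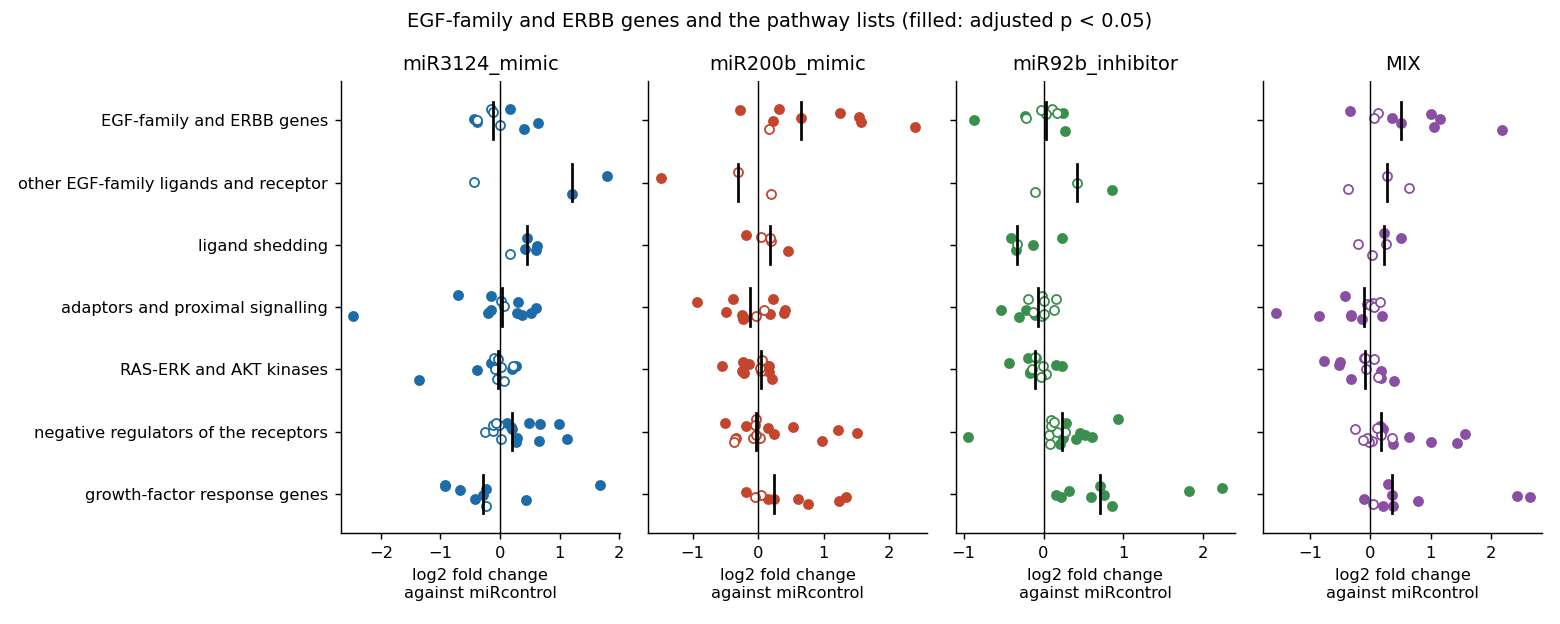
Log2 fold change against miRcontrol for the 9 EGF-family and ERBB genes and the tested genes of 6 pathway lists, in 4 panels. Points are genes, filled where the adjusted p is under 0.05, black bars are medians, and vertical scatter within a list has no meaning. Growth-factor response genes have a median of -0.28 in miR3124_mimic and 0.71 in miR92b_inhibitor.

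Finally, genes with a similar pattern were listed for the members whose group means of log2 CPM spanned at least 2-fold. These were AREG, EREG, TGFA, ERBB3 and ERRFI1, and the other members were not searched. Similarity was Pearson's r of log2 CPM over the 10 libraries among 12891 genes. These values describe libraries that share their groups and carry no test. Between 200 and 311 genes passed an r of 0.9 for each member searched. AREG was nearest to HSH2D (0.985), SPAG1 (0.984) and MIG7 (0.983). EREG was nearest to MXD1 (0.979), SLC7A6 (0.978) and SERPINB7 (0.968). TGFA was nearest to FGD6 (0.993), ITGA2 (0.992) and SEMA7A (0.992). The closest genes to ERBB3 were ZBTB7B (0.995), HIVEP3 (0.988) and RAB11FIP1 (0.985), and those to ERRFI1 were MTMR2 (0.988), SERP1 (0.986) and MAK16 (0.986). Among the 36 pairs of the 9 members, r was highest for AREG with EREG (0.949), followed by EGFR with ERRFI1 (0.939) and AREG with TGFA (0.928), and lowest for TGFA with ERBB2 (-0.80).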

How the data were processed

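The deposited values were raw read counts per gene in 10 libraries, 1 file each. According to the study's methods and the submitters' processing notes, the authors made poly(A)-selected libraries with a directional kit, trimmed the reads (FASTX_Trimmer, BBMap) and mapped them with TopHat to GRCh38. The counting tool, its annotation and its strand setting are not given in the sources used here. Each file lists 58173 entries, of which 5771 repeat a symbol and were summed.

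From these counts, edgeR 4.0.16 (R 4.3.3, limma 3.58.1) was run with filterByExpr, RLE factors (0.985 to 1.016) and a single quasi-likelihood model of the 10 libraries by group, adjusted by the Benjamini-Hochberg method over 14884 genes. SE is the log2 fold change divided by the root of F. The fit was tested on simulated counts with known changes. It recovered 80 to 84 of 100 changes of 2-fold and 90 to 95 of 100 changes of 4-fold. Between 4 and 16 unchanged genes were called. Each simulation changed 200 genes, far fewer than were called in the data, and took its spread from these same libraries. It therefore checks the fit only and does not give the error rates of the real comparisons. The alternatives were TMM factors, library totals, DESeq2 1.42.0, edgeR's exact test, the 2 groups alone, other filters, a replicate block and leaving out each library. A library with 0 counts allows up to 3, and this limit covers counting error only. Libraries of a group differed by more than counting error (chi-square over degrees of freedom 1.78 to 2.76). The genes named in a pathway list are the largest rise and the largest fall among those called at 2-fold. Members and lists were chosen with earlier results of these data known.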

Additional observations from a re-analysis of the deposited data

How the results depend on the processing

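The 63 fold changes of the 9 genes were recomputed under the alternatives, which gave 756 values, of which 717 kept the direction and the call, 18 lost the call, 7 gained it and 14 changed sign. None of the 14 was called as reported. With TMM factors NRG1 in miR3124_mimic was -0.0033, with the 2 groups alone -0.0023 and without a filter -0.0031. The other sign changes came from leaving out 1 library, which gave these ranges against miRcontrol: -0.44 to 0.060 for EREG and -0.13 to 0.14 for NRG1 in miR3124_mimic, -0.095 to 0.35 for NRG1 in miR200b_mimic, and -0.10 to 0.29 for AREG, -0.024 to 0.10 for HBEGF and -0.080 to 0.020 for EGFR in miR92b_inhibitor. In MIX, NRG1 ran from -0.0090 to 0.26 against miR3124_mimic and from -0.22 to 0.22 against miR200b_mimic, and ERBB2 from -0.13 to 0.037 against miR200b_mimic. The cause was not tested.

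Leaving out 1 library gave 2 to 4 members at 2-fold in MIX against miRcontrol and 1 to 2 against miR3124_mimic. Requiring at least 10 counts in every library tests fewer genes, and the genes called at 2-fold became 740 in place of 1210 in miR3124_mimic, 423 in place of 727 in miR200b_mimic, 131 in place of 285 in miR92b_inhibitor and 402 in place of 695 in MIX, all against miRcontrol. For MIX they became 499 in place of 934 against miR3124_mimic, 251 in place of 512 against miR200b_mimic and 342 in place of 620 against miR92b_inhibitor. DESeq2 called 131 in miR92b_inhibitor and 316 in MIX against miR200b_mimic. EGFR and ERRFI1 in MIX against miR92b_inhibitor (0.091 and 0.092, not called) passed under some settings.

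No effect shared by replicates of the same number was detected, and the sources used here do not say whether they were paired. Replicate 1 minus replicate 2 correlated at -0.0625 to 0.0613 across the 10 pairs of groups (10419 genes). With the replicate block, 5, 8, 4 and 7 members were called in miR3124_mimic, miR200b_mimic, miR92b_inhibitor and MIX, and no call changed. Low counts limit EREG, ERBB3 and NRG1. They also limit AREG in miRcontrol, miR3124_mimic and miR92b_inhibitor, with 62 to 113 counts a library. BTC could not be measured.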
